A study of Homo sapiens with 2 samples.

Results

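The genes described here encode 10 core heterogeneous nuclear ribonucleoproteins (hnRNPs): HNRNPA1, HNRNPA2B1, HNRNPC, HNRNPD, HNRNPF, HNRNPH1, HNRNPK, HNRNPL, HNRNPM and HNRNPU. They were chosen by gene symbol, and all 10 were found among the 23709 records of the deposited expression table. The study measured gene expression in the Caco-2 line, established from a human colorectal adenocarcinoma and obtained from a public cell repository, grown in DMEM with fetal bovine serum, penicillin/streptomycin and ciprofloxacin and given no other agent that the labels name. Polyadenylated RNA was sequenced from total RNA (the mRNA library) and from RNA held in complexes of ribosomes with their nascent chains (the RNC-mRNA library), so the comparison asks how far the mRNAs held on translating ribosomes mirror the mRNAs present in the cell. There was 1 library of each kind, so nothing below has a replicate check and no p-value is given.

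hnRNPs coat nascent transcripts in the nucleus and steer how they are spliced, polyadenylated, exported and kept stable. Most bind RNA through RNA recognition motifs, HNRNPK binds through KH domains, and several shuttle between nucleus and cytoplasm. They are among the more abundant RNA-binding proteins of dividing epithelial cells, and many of them regulate the processing of their own transcripts.

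Levels are RPKM, reads per kilobase of transcript scaled to the size of the library, so they can be compared between genes. The relative translation ratio of a gene is log2 of its RNC-mRNA level over its mRNA level, each with 0.1 RPKM added, less the median of the same quantity over the 13402 expressed genes (mean RPKM of at least 1). A value of 0 therefore marks the median gene. Worked out from the step size of the RPKM values, the totals were 9640364 reads for mRNA and 11083302 reads for RNC-mRNA. Each member rested on at least 1644 to 4018 reads in the mRNA library and 2238 to 5839 in the RNC-mRNA library. The 95% intervals given here come from those reads and cover counting error only. Of 7 epithelial markers looked for, 6 fitted the label: EPCAM, CDH1, KRT8, KRT18, VIL1 and CDX2 lay between 79.8 and 1693 RPKM over both libraries. The other, KRT20, did not: it was below the expression limit, at 0.977 and 0.050 RPKM. Of the markers of other cells, leukocyte PTPRC was at 0.363 and 0.0332 RPKM, endothelial PECAM1 at 4.12 and 1.58, and the fibroblast collagens COL3A1 at 5.38 and 3.86 and COL1A1 at 46.8 and 26.1 RPKM. What part, if any, such expression has in the values below was not tested. In bulk RNA, fewer cells expressing a gene and less RNA of it per cell cannot be told apart.

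The coding sequences of HNRNPF and HNRNPH1 are shown first, because these 2 close relatives lay at opposite ends of the family's translation ratios and the comparison needs reads that tell them apart. The first 90 coding bases are given for HNRNPH1 (chromosome 5), HNRNPH2 (chromosome X) and HNRNPF (chromosome 10), read from GENCODE release 29 transcripts. Capitals mark bases that differ from HNRNPH1.
HNRNPH1: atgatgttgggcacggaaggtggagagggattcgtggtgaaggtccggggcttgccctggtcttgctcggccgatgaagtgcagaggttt
HNRNPH2: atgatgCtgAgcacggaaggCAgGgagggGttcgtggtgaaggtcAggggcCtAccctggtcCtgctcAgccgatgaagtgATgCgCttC
HNRNPF: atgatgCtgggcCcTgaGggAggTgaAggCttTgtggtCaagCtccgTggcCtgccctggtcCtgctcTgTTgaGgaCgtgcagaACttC
Of these 90 bases, 22 differed between HNRNPF and HNRNPH1 and 16 between HNRNPH2 and HNRNPH1, spread along the stretch. Over the whole aligned coding sequence HNRNPF and HNRNPH1 were identical at 78.3% of bases, and HNRNPH1 and HNRNPH2 at 87.6%.

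All members were well expressed. Their median level was 125 RPKM in mRNA and 141 RPKM in RNC-mRNA, against 9.76 and 9.09 RPKM for expressed genes as a whole. They ranked between 277 and 1037 of all records in the mRNA library and between 246 and 942 in the RNC-mRNA library. Summed, they made up 1282 RPKM of the mRNA library and 1467 RPKM of the RNC-mRNA library, 14.4% more in the latter. This was 0.278% and 0.317% of all RPKM. In the mRNA library the levels spanned 2.93-fold from HNRNPM to HNRNPL, and in the RNC-mRNA library they spanned 3.13-fold between the same genes.

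**Figure D1:**
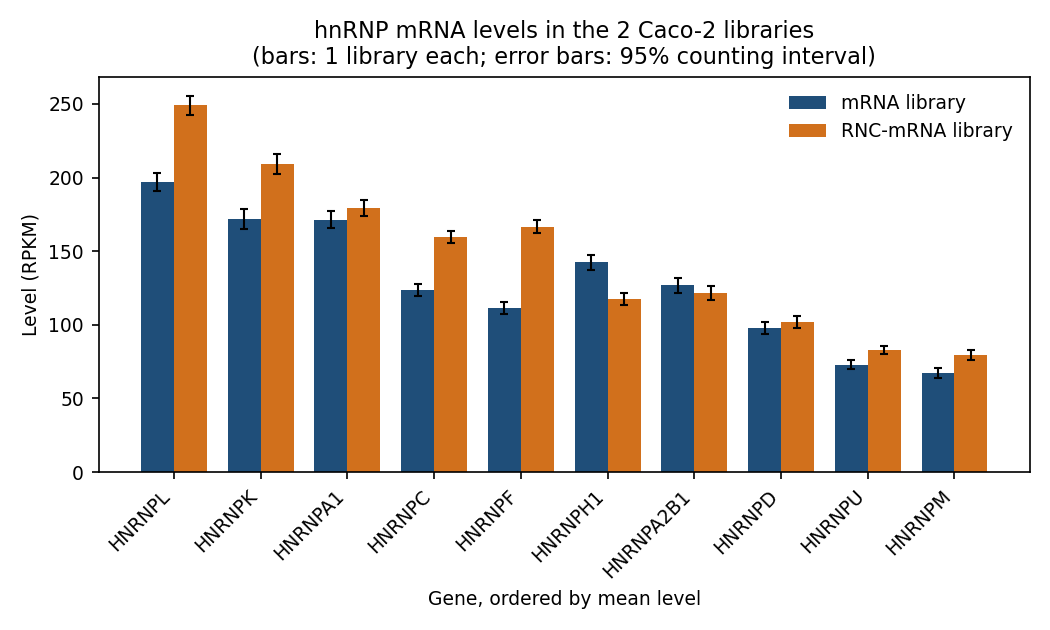
Level in RPKM (vertical axis) of each member in the mRNA library (blue) and the RNC-mRNA library (orange), ordered by mean level; each bar is 1 library and error bars are 95% counting intervals. HNRNPL is highest in both libraries, and HNRNPH1 and HNRNPA2B1 are the members whose orange bar is the lower of the pair.

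HNRNPL led the order of levels in both libraries, followed by HNRNPK, and HNRNPU and HNRNPM closed it. Between these ends the order differed. In the mRNA library it ran HNRNPA1, HNRNPH1, HNRNPA2B1, HNRNPC, HNRNPF and HNRNPD. In the RNC-mRNA library it ran HNRNPA1, HNRNPF, HNRNPC, HNRNPA2B1, HNRNPH1 and HNRNPD, so HNRNPF moved up and HNRNPH1 moved down. Of the 9 neighbouring pairs, 3 had overlapping counting intervals in the mRNA library: HNRNPK with HNRNPA1, HNRNPA2B1 with HNRNPC, and HNRNPU with HNRNPM. In the RNC-mRNA library 3 overlapped as well: HNRNPF with HNRNPC, HNRNPA2B1 with HNRNPH1, and again HNRNPU with HNRNPM.

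As a group the members lay a little above the median gene, as did most genes of like abundance. Their median relative translation ratio was 0.25, and 8 of the 10 were above 0 and 2 below. The same 8 had a higher RPKM in the RNC-mRNA library, against 47.1% of all expressed genes. The counting interval lay wholly above 0 for 8 members, where 29.6% of expressed genes did so, and wholly below 0 for 1 member, where 30% did. These shares count genes of every level. The closer comparison is with the 725 expressed genes whose mean level lay in the members' own range, 73.4 to 223 RPKM. Those genes had a median of 0.21, with the middle 50% between 0.00 and 0.41, and 75.7% of them were above 0. Their counting interval lay wholly above 0 in 64% and wholly below in 16.6%. Of the members, 6 were above that median and 4 below it. HNRNPA1 and HNRNPD, above the median of all expressed genes, were at -0.10 and -0.11 from the median of genes of like level. HNRNPU was at -0.0020 from the median of genes in the members' range of both level and inferred transcript length (1925 to 6846 bases). That range is common to all members and is not matched to HNRNPU, which lies at its upper end. The members' median of 0.25 was thus close to the 0.21 of genes of like level.

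The spread within the family was larger than counting error. Relative ratios ran from -0.24 in HNRNPH1 to 0.62 in HNRNPF, a 1.82-fold range. Of the 45 pairs of members, 37 differed by more than a 95% interval from counting (log-scale interval of the ratio of ratios), and 8 did not. Of the 9 pairs that are neighbours in the order of ratios, 5 did not. The intervals use the fewest reads that fit, at lengths of 1489, 1851 and 3423 bases for HNRNPK, HNRNPA2B1 and HNRNPU. The fitting lengths nearest a GENCODE transcript were 2978, 3702 and 6846 bases. At those lengths reads would be more and intervals narrower, so more pairs than 37 could differ. The share of such differing pairs among the 725 genes of like level was not worked out. These counts therefore compare the members with counting error only and do not set the family apart from other genes. The lower and upper quartiles of the ratios were 0.10 and 0.36 for the members. They were 0.00 and 0.41 for the 725 genes. By the rule of size used in place of a test, 1 member was at least 1.5-fold above the median gene (7.44% of expressed genes) and 0 were at least 1.5-fold below (19.7%). None was 2-fold above or below, against 1.37% and 11.8% of expressed genes. Among the 725 genes of like level, 7.03% were at least 1.5-fold above and 2.9% at least 1.5-fold below, and 4 and 8 genes were 2-fold above and below, so the members' counts were near those of genes of like level.

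**Figure D2:**
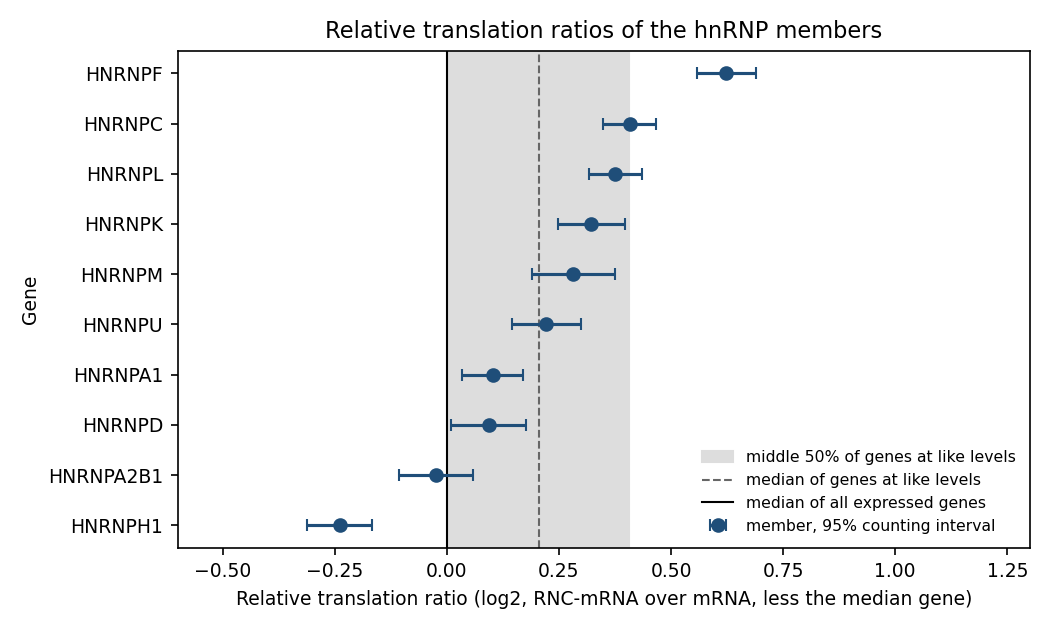
Relative translation ratio of each member (horizontal axis, log2, 0 is the median of expressed genes) with its 95% counting interval; the grey band and dashed line give the middle 50% and the median of the 725 genes in the members' range of level. HNRNPF at 0.62 lies above the band, HNRNPC at 0.41 sits at its upper edge, and HNRNPH1 at -0.24 and HNRNPA2B1 at -0.02 lie below it.

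HNRNPF and HNRNPH1 bind runs of G in RNA and act on splice site choice and polyadenylation. HNRNPF had 111 RPKM in mRNA and 167 RPKM in RNC-mRNA. HNRNPH1 had 142 RPKM in mRNA and 118 RPKM in RNC-mRNA. HNRNPH1 was thus the more abundant of the pair in total mRNA and HNRNPF the more abundant on ribosomes. The relative ratio was 0.62 for HNRNPF (interval 0.56 to 0.69), or 1.54-fold above the median gene. It was -0.24 for HNRNPH1 (interval -0.31 to -0.17), or 0.848 of the median gene. The difference between them was 0.86 (interval 0.76 to 0.96). These 2 are the highest and lowest of the members' ratios, and the interval takes no account of that choice. Among the 725 genes of like level, 5.66% had a higher ratio than HNRNPF and 9.79% a lower ratio than HNRNPH1. HNRNPF was the member past the 1.5-fold rule. It fell short of that rule when only genes averaging 5 RPKM or more set the median (0.54), with the ratio not centred (0.58), and when centred on genes of like level (0.42).

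The other genes of this subfamily lay between these 2. HNRNPH2, whose coding start is shown above, had 20.6 RPKM in mRNA and 25.5 RPKM in RNC-mRNA, a relative ratio of 0.34 (interval 0.17 to 0.52). HNRNPH3, which lacks one of the RNA-binding domains of its relatives, had 50.9 and 59.7 RPKM and a relative ratio of 0.27 (interval 0.16 to 0.38). HNRNPF was higher than HNRNPH2 by 0.28 (interval 0.10 to 0.46), and HNRNPH2 was higher than HNRNPH1 by 0.58 (interval 0.40 to 0.77). HNRNPH1 was thus the only gene of the 4 below the median gene.

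HNRNPA1 and HNRNPA2B1 are splicing regulators that shuttle to the cytoplasm, and HNRNPA2B1 also takes part in mRNA transport. HNRNPA1 had 171 RPKM in mRNA and 179 RPKM in RNC-mRNA, with a relative ratio of 0.10 (interval 0.03 to 0.17). HNRNPA2B1 had 127 and 121 RPKM, with a relative ratio of -0.02 (interval -0.11 to 0.06). Its interval was the only one among the members that spanned 0. HNRNPA1 was higher than HNRNPA2B1 by 0.13 (interval 0.02 to 0.23). Of their close relatives, HNRNPA3 was at -0.03 (50.2 and 47.8 RPKM) and HNRNPA0 at 0.44 (77.3 and 102 RPKM). HNRNPA0 was higher than HNRNPA2B1 by 0.46 (interval 0.35 to 0.57).

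The level of HNRNPA1 is the least certain of the 10, because its transcript has near-identical copies. Of the 50-base stretches of its GENCODE transcript, 67.6% also occurred in a transcript of another gene, on either strand, and 55 other genes shared at least 1. The processed pseudogene HNRNPA1P10, an intronless copy, was listed at 381 RPKM in mRNA and 397 RPKM in RNC-mRNA, 2.23-fold and 2.22-fold above HNRNPA1 itself. It ranked 153 and 148 of all records, above each of the 10 members. Of the 50-base stretches of the GENCODE transcript of HNRNPA1P10 (962 bases), 72.8% were found in HNRNPA1 transcripts. The shortest length that fits the RPKM values of HNRNPA1P10 was 1356 bases. The record counted was thus longer than the sequence compared, and the share need not hold for it. The sources used here do not say how reads that fit both records were assigned. The relative ratio of HNRNPA1P10 was 0.10 (interval 0.04 to 0.15), and with the reads of both records summed it was also 0.10 (interval 0.06 to 0.14, on at least 8168 and 9795 reads). The ratio was thus the same to 2 decimals for HNRNPA1 and the copy, and that of their sum had to lie between the 2. If reads that fit both records were counted for each, the 2 ratios are not independent. The sum would then count such reads more than once, and its interval would be too narrow. HNRNPA1 held 38.9% of the summed reads in mRNA and 39.0% in RNC-mRNA. HNRNPA1L2, a second retained copy identical to HNRNPA1 at 98.4% of aligned coding bases, was listed at 1.49 and 1.91 RPKM.

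**Figure D3:**
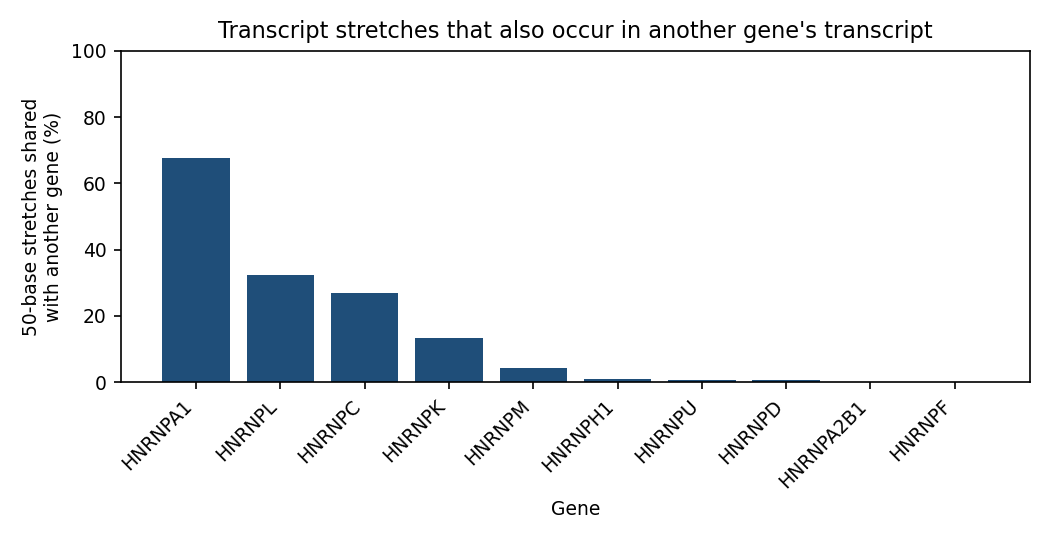
Share of the 50-base stretches in each member's GENCODE transcript that also occur in a transcript of another gene (vertical axis, percent, either strand). HNRNPA1 reaches 67.6%, HNRNPL 32.3% and HNRNPC 27.0%, while HNRNPF and HNRNPA2B1 have none.

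Such sharing varied over the family. It was 32.3% in HNRNPL, 27.0% in HNRNPC, 13.3% in HNRNPK and 4.29% in HNRNPM. It was 1.08% in HNRNPH1, 0.720% in HNRNPU and 0.704% in HNRNPD. HNRNPF and HNRNPA2B1 shared 0 stretches. These are shares of GENCODE transcripts, whose lengths can differ from those inferred from the RPKM values. The 2 lengths were 1784 and 3251 bases for HNRNPC, and 2471 and 2115 bases for HNRNPL. The share in the records counted may therefore differ. HNRNPH1 and HNRNPH2 had 1 such stretch in common, so the difference between HNRNPF and HNRNPH1 rests on sequence that is almost wholly their own at this length. The length of 50 bases was chosen for the description, as the sources used here name no read length. Reads of HNRNPL, HNRNPC and HNRNPK are likewise uncertain where pseudogenes or a neighbouring transcript carry the same bases.

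HNRNPC binds runs of uridine and packages nascent transcripts in the nucleus. It had 124 RPKM in mRNA and 160 RPKM in RNC-mRNA, and its relative ratio of 0.41 (interval 0.35 to 0.47) was the second highest. RALY, a relative of HNRNPC, had 91.1 and 132 RPKM and a relative ratio of 0.57 (interval 0.52 to 0.63). The difference of HNRNPC from RALY was -0.17 (interval -0.25 to -0.08). HNRNPL binds CA-rich elements and acts as a splicing activator or repressor by position. It had 197 and 249 RPKM, the highest level of the members in both libraries, and a relative ratio of 0.38 (interval 0.32 to 0.43). Its relative HNRNPLL, known for its part in lymphocyte splicing, was at 11.01 and 13.2 RPKM with a ratio of 0.30, and the 2 did not differ beyond counting (difference 0.08, interval -0.14 to 0.29).

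HNRNPK, the KH-domain protein, binds C-rich sequences in both RNA and DNA. It had 172 RPKM in mRNA and 209 RPKM in RNC-mRNA, with a relative ratio of 0.32 (interval 0.25 to 0.40). The related poly(C)-binding proteins PCBP1 and PCBP2 were more abundant than HNRNPK in both libraries. PCBP1, an intronless gene, had 210 and 315 RPKM and exceeded HNRNPK in ratio by 0.30 (interval 0.20 to 0.40). PCBP2 had 264 and 318 RPKM and its ratio differed from that of HNRNPK by -0.02 (interval -0.11 to 0.07).

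HNRNPM, a splicing regulator that binds GU-rich RNA, was the least abundant member, at 67.2 RPKM in mRNA and 79.6 RPKM in RNC-mRNA. Its relative ratio was 0.28 (interval 0.19 to 0.37). HNRNPU, the scaffold attachment factor that ties RNA to chromatin, had 73.0 and 82.9 RPKM and a relative ratio of 0.22 (interval 0.14 to 0.30), nearest of all members to the median of genes of like level. HNRNPUL1, which resembles it, was at 0.44 (101 and 134 RPKM) and HNRNPUL2 at 0.05 (31.3 and 31.4 RPKM). An antisense record, HNRNPU-AS1, was listed at 9.46 and 7.05 RPKM, and no step that keeps strand is named in the labels, so its reads and those of HNRNPU cannot be told apart where the 2 overlap.

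HNRNPD, also called AUF1, binds AU-rich elements in mRNA and is known for promoting decay of the mRNAs that carry them. It had 97.9 RPKM in mRNA and 102 RPKM in RNC-mRNA, with a relative ratio of 0.09 (interval 0.01 to 0.18). Its relatives HNRNPAB (111 and 125 RPKM, 0.22) and HNRNPDL (47.4 and 46.2 RPKM, 0.00) lay on either side. The difference from HNRNPDL was 0.09 (interval -0.03 to 0.21). Other proteins that bind AU-rich elements lay higher in 5 of 7 cases, and 4 of the 7 were at least 1.5-fold above the median gene (list median 0.62). Among all expressed genes 7.44% were that far above. The 7 were not matched to HNRNPD in level. ZFP36L2, a decay factor, was highest at 0.96 (83.6 and 159 RPKM). TIA1, a stress granule protein, was lowest at -0.20 (13.8 and 11.7 RPKM).

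Relative ratios were then set beside those of related lists. Of 24 other hnRNP genes, 21 were expressed, and 19 of these were above the median gene and 2 below (list median 0.30). PTBP3 was highest at 0.76 (14.9 and 24.7 RPKM). RALYL was listed at 0 in both libraries, PCBP3 was below the expression limit, and HNRNPCL1 rested on as few as 1 read in mRNA, with RNC-mRNA listed at 0. SR proteins and TRA2 factors, the other large class of splicing regulators, had a median of 0.12 in 14 genes (-0.087 when centred on genes of like level) and ranged from -1.87 to 0.58. Of these 10 were above and 4 below, with 3 at least 1.5-fold below. SRSF12 was lowest at -1.87 (2.54 and 0.602 RPKM) and SRSF8 highest at 0.58 (15.2 and 22.2 RPKM), while the most abundant by mean level, SRSF9, was at 0.26 (120 and 140 RPKM). No expressed hnRNP gene of either list was 1.5-fold below. The share was 2.9% among the 725 genes in the members' range of level and 19.7% among all expressed genes. The other hnRNP genes had median levels of 50.2 and 59.7 RPKM, below that range, so neither share is matched to them. Level was not matched between the hnRNP and SR lists. The Sm and LSm proteins, which form the core of spliceosomal small nuclear ribonucleoproteins and the mRNA decay ring, had a median of 0.30 in 15 genes, from LSM8 (listed as NAA38) at -0.26 to LSM6 at 0.98, with the abundant SNRPB at 0.00. Of the 5 genes for import and arginine methylation of hnRNPs, all were above the median gene (list median 0.43), with TNPO1, which carries HNRNPA1 into the nucleus, highest at 0.57 and its relative TNPO2 lowest at 0.10. PRMT1, the main methyltransferase acting on hnRNPs, was the most abundant at 170 and 237 RPKM (0.52). Over all expressed genes the median is 0 by construction, 7.44% were at least 1.5-fold above and 19.7% at least 1.5-fold below. Differences between these lists were not tested.

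**Figure D4:**
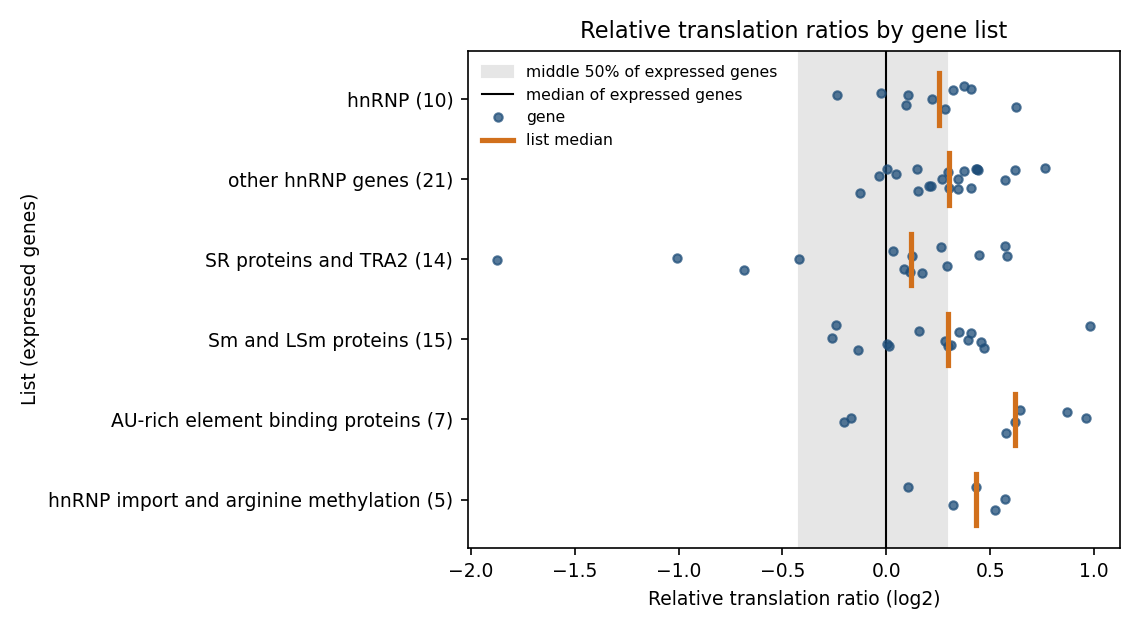
Relative translation ratio (horizontal axis, log2) of each expressed gene in 6 lists; points are genes, orange bars are list medians, and the grey band is the middle 50% of expressed genes. The hnRNP members lie between -0.24 and 0.62, and the SR protein list has the lowest single value, at -1.87.

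A sequence feature at the start sites was looked for in RefSeq windows of 300 bases (250 before to 50 after each annotated start, GRCh38.p14). Windows were given for 9 members, with HNRNPA1 not among them, and several members have more than 1 start. After the sequences had been read, the motif GCCATNT, or ANATGGC on the other strand, was picked because it recurred close to the starts. It was present in 6 of 15 member windows (40.0%), against 14.0% of all 35116 windows, and in 5 of 9 members against 20.04% of 9466 expressed genes matched by symbol. Because the motif was picked from these same windows, its higher share in them and its closeness to the starts follow from the choice and carry no support. The matches are shown with 30 bases each, capitals marking the motif, because the first base of each lay within 23 bases of an annotated start.
HNRNPC chr14:21269409-21269438, minus strand: gagactcggggGCCATTTtgtgaagagacg
HNRNPD chr4:82373969-82373998, minus strand: ttcttccgtcgGCCATTTtaggtggtccgc
HNRNPH1 chr5:179623386-179623415, minus strand: aagcggccgccGCCATTTcctttcctctac
HNRNPH1 chr5:179623655-179623684, minus strand: ggcgcccgctgGCCATTTcgtcttagccac
HNRNPL chr19:38849951-38849980, minus strand: ggttctgcgccGCCATGTcgcggaggctgc
HNRNPM chr19:8444986-8445015, plus strand: agacgcggagaAAATGGCggcaggggtcga
In HNRNPL and HNRNPM the match includes the start codon, so there it is also coding sequence. The motif did not divide the members by translation ratio: the 5 with it had a median of 0.28 (range -0.24 to 0.41) and the 4 with a window and without it had a median of 0.27 (range -0.02 to 0.62). Over expressed genes the medians were 0.08 with the motif and 0.02 without. A pyrimidine tract of the kind that marks ribosomal protein mRNAs, here a C at the annotated start followed by 4 more pyrimidines, was in 0 of 9 members and in 7.37% of expressed genes.

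The genes nearest to the members' median point in the 2 log2 levels (125 and 139 RPKM) were the complex I subunit NDUFS6, the superoxide dismutase SOD1, REEP6, the nuclear export receptor CSE1L and the clathrin adaptor subunit AP2S1. Their distances were 0.02 to 0.06 on the log2 scale over the 2 libraries, and their relative ratios were 0.15 to 0.22.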

How the data were processed

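The authors deposited RPKM values for 1 mRNA library and 1 RNC-mRNA library, in a table that pairs each gene symbol with 1 RefSeq record, per the file headers. Per the submitters' processing notes, the build was hg19. The aligner, the counting tool and the handling of multiply mapped reads are not given in the sources used here. The RPKM values were used as deposited.

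For each library, integers were scored around the totals to which low read numbers most often pointed. Of these, the total chosen gave whole reads to the largest number of genes with a known GENCODE transcript length (2697 and 2414 genes, against 2154 and 2035 at the next total). The integers scored lay close together, so the numbers at the next total say nothing of distant totals. Each gene's fewest whole reads fitting both values were then found (99.9% of expressed genes). True reads can be a multiple of these, so intervals err on the wide side. Intervals of ratios are exact Clopper-Pearson, those of levels exact Poisson, those of differences log-scale. The recovery was tested on simulated data, where it returned the totals that had been set. Every simulated gene there had a GENCODE transcript length, which the deposited records need not have, so the test does not cover that difference. PCR copies are not independent molecules.

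The members and lists were chosen with earlier results of these data known. All members are named. For other lists the highest, lowest and most abundant members were the rule, and relatives of a member are named beside it. A result that this rule would name is not reported here. Sequences are from GENCODE release 29 and RefSeq (GRCh38.p14); the coding sequence is the longest open reading frame. Tools were Python 3.11.15, numpy 2.4.6, pandas 2.3.3 and scipy 1.17.1. Alternatives varied the pseudocount, filter and centre.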

Additional observations from a re-analysis of the deposited data

How the results depend on the processing

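Differences between members do not depend on the centre of the ratios, but their distance from 0 does. The members' median relative ratio of 0.25 was 0.35 with no filter on low values, 0.045 when centred on genes of like level, and 0.028 when centred on genes of like level and length, an alternative chosen after seeing the data. The count of members at least 1.5-fold above was 1, and it was 0 with a mean RPKM of at least 5, with no centring, with equal RPKM sums, with equal upper quartiles, and in both centrings on like genes. The number of members above the centre was 5 of 10 when centred on like level and length. Under the centring on like level HNRNPA1 moved to -0.10 and HNRNPD to -0.11, and on like level and length HNRNPA1 was at -0.12, HNRNPD at -0.13 and HNRNPU at -0.0020. HNRNPF stayed above 0 (0.40 to 0.72) and HNRNPH1 below it (-0.46 to -0.14) in all 10 alternatives.

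With no filter the list medians were 0.22 for SR proteins, 0.72 for AU-rich element binding proteins and 0.53 for import and methylation. Centred on like level, other hnRNP genes were at 0.10, SR proteins at -0.087, Sm and LSm proteins at 0.090, AU-rich element binding proteins at 0.42, and import and methylation at 0.22. Centred on like level and length they were at 0.080, -0.10, 0.073, 0.40 and 0.21. Scaled so that both libraries had the same sum, as in TPM, the members' median level was 271 and 304. In these settings the value changed because another set of genes, or another scale, set the zero. Pseudocounts of 0.01 and 1 RPKM and centring on NM records left these values within 0.1 or within counting error. No paired analysis was possible because each group has 1 library. With 1 library per group, differences between cultures or library preparations cannot be told apart from those between mRNA and RNC-mRNA.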

Other observations

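Other near copies of hnRNP genes were mostly weak in the table. HNRNPA3P1 rested on as few as 3 reads in mRNA and 1 in RNC-mRNA, and HNRNPKP3 on as few as 2 and 9. RBMXL1, a retained copy of RBMX, was listed at 13.6 and 15.3 RPKM (relative ratio 0.21), beside 119 and 134 RPKM for RBMX (0.21). Among SR proteins, SRSF11 had 31.5 RPKM in mRNA and 15.2 RPKM in RNC-mRNA (-1.01, interval -1.18 to -0.85) and SRSF5 had 70.1 and 42.4 RPKM (-0.68, interval -0.82 to -0.55), both chosen after their values were seen.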
